A study of Homo sapiens with 2 samples.

Results

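The assays described here read microRNAs (miRNAs) that are known as markers of blood cells: miR-486, miR-451 and miR-144 of red cells, miR-142-3p, miR-142-5p and miR-223 of leukocytes, and miR-150 of lymphocytes. They were found by name, after removal of the species prefix and the assay number, among the 365 miRNA assays of the deposited tables. Of the 7 names, 5 had 1 assay each, and miR-144 and miR-150 are not analysed here.

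Both RNA samples came from CL1-5, a human lung adenocarcinoma cell line known for its invasiveness. In 1 sample the cells overexpressed ANGPTL1, an angiopoietin-like secreted protein, and in the other they carried the vector pcDNA3.1 alone and served as the control. All cells had passed 4 weeks of G418 selection as stable lines, and the labels do not say whether each line was a clone or a pool. Quantitative PCR ran for 40 cycles after reverse transcription of 500 ng of total RNA. With 1 sample per group no difference has an error or a test, and the values below compare these RNA samples only.

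A miRNA is cut from a hairpin precursor, from which either arm can become the mature strand, and its seed (bases 2 to 8) pairs with target messenger RNAs. miR-451 and miR-144 are made from 1 cluster that the erythroid factor GATA1 switches on, and miR-451, which is cut by AGO2 rather than DICER, is among the most abundant miRNAs of red cells. miR-486 lies within ANK1, the gene of a red-cell membrane skeleton protein, and is made in skeletal and heart muscle as well as in red cells. miR-142 is made throughout the blood lineages, miR-223 is high in granulocytes, monocytes and platelets, and miR-150 marks mature lymphocytes.

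The mature sequences of the leukocyte miRNAs are shown because the assays read single mature strands and because both arms of the miR-142 hairpin were measured separately. They are from RefSeq (GRCh38.p14), 5′ to 3′, with the seed in capitals, and 3 of the 5 measured names had an entry in that table. The assay name miR-223 does not say which arm it reads, so both are given.
hsa-miR-142-5p: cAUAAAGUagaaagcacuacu
hsa-miR-142-3p: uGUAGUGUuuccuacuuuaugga
hsa-miR-223-5p: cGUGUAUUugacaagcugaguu
hsa-miR-223-3p: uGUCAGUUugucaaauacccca

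The 4 seeds differ from each other. In the RefSeq table the seeds of miR-142-3p, miR-223-3p and miR-223-5p occur in no other mature miRNA, and that of miR-142-5p occurs in 1, miR-5590-3p, which is not on the card. The MIR142 hairpin lies on the minus strand at chr17:58331232-58331318, within the non-coding gene MIR142HG. It is shown with both mature strands in capitals, since each arm has its own assay. miR-142-5p takes bases 16 to 36 and miR-142-3p bases 52 to 74.
MIR142 hairpin: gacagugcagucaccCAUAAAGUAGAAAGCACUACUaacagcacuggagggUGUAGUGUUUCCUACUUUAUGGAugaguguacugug

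MIR223 lies on the plus strand at chrX:66018870-66018979, within the non-coding gene MIR223HG. MIR451A lies at chr17:28861369-28861440, and 92 bases separate it from MIR144 at chr17:28861533-28861618.

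Of the 5 blood-cell miRNA assays found by name, only that of miR-486 was detected in both samples. The measured value is the threshold cycle, the PCR cycle at which an assay's fluorescence crosses a set level, so that 1 cycle less means about 2 times more template if each cycle doubles it. An assay counted as detected below cycle 35, and 40 is the last cycle. In ANGPTL1 cells 1 of the 5 assays was detected, beside 43.3% of all 365 miRNA assays. In control cells 2 of the 5 were detected, beside 43.0% of all assays. The second assay in control cells was that of miR-142-3p, which lay within 1 cycle of the limit.

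**Figure D1:**
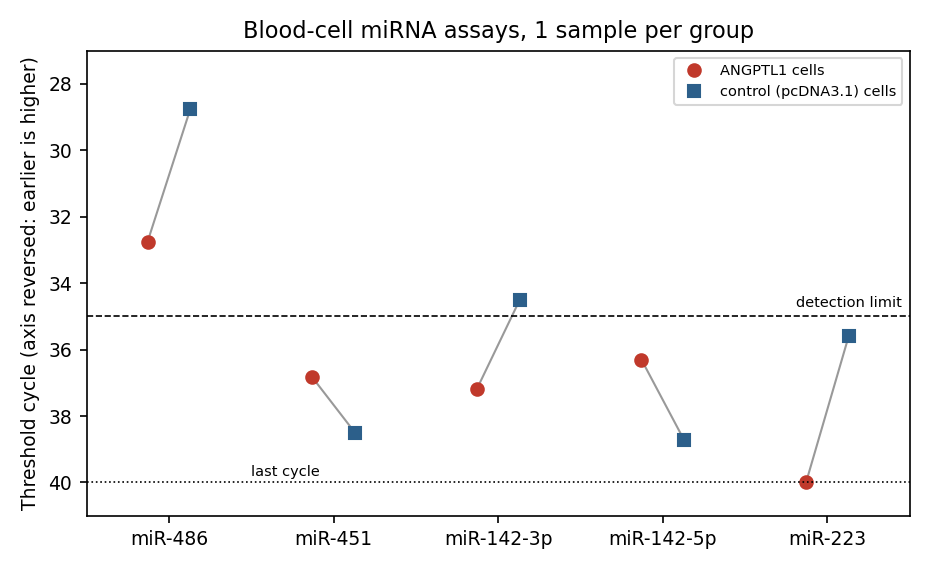
Threshold cycle (vertical axis, reversed) of the 5 measured blood-cell miRNA assays, with 1 point for the ANGPTL1 sample and 1 for the control sample; the dashed line marks the detection limit of 35 and the dotted line the last cycle, 40. miR-486 is above the dashed line in both samples, miR-142-3p in the control sample alone, and the other assays lie below it.

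miR-486 crossed threshold at cycle 32.75 in ANGPTL1 cells and at cycle 28.75 in control cells, a delay of 4 cycles. In the order of cycles it was number 122 of the 365 assays in ANGPTL1 cells and number 68 in control cells. The endogenous control was RNU48, a small nucleolar RNA, which stood at cycle 21.21 in ANGPTL1 cells and 20.79 in control cells. Relative to it, miR-486 was 12.0-fold lower in ANGPTL1 cells (log2 ratio -3.58). It was the only member with a ratio measured on both sides, and it was past 2-fold. Among the 145 assays with both cycles below 35, 4.83% were lower by 2-fold or more in ANGPTL1 cells.

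The log2 ratio of miR-486 lay below those of the other assays at like cycles that were detected in both samples. A total of 33 other assays were detected in both samples with a mean cycle within 1 of the 30.75 of miR-486. Their log2 ratios ran from -2.81 (miR-422b) to 3.58 (miR-155), with a median of -0.10, and 2 of the 33 were lower by 2-fold or more in ANGPTL1 cells. Among 31 assays detected in both samples whose control cycle was within 1 of that of miR-486, the change in cycle ran from 1.46 earlier to 3.23 later in ANGPTL1 cells, against 4 later for miR-486. One more assay with such a control cycle, miR-510, was detected in control cells alone, at 40 in ANGPTL1 cells and 29.25 in control cells, and its bound of -5.33 is lower than the log2 ratio of miR-486. These ranges hold real differences as well as measurement error, which single samples do not separate.

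**Figure D2:**
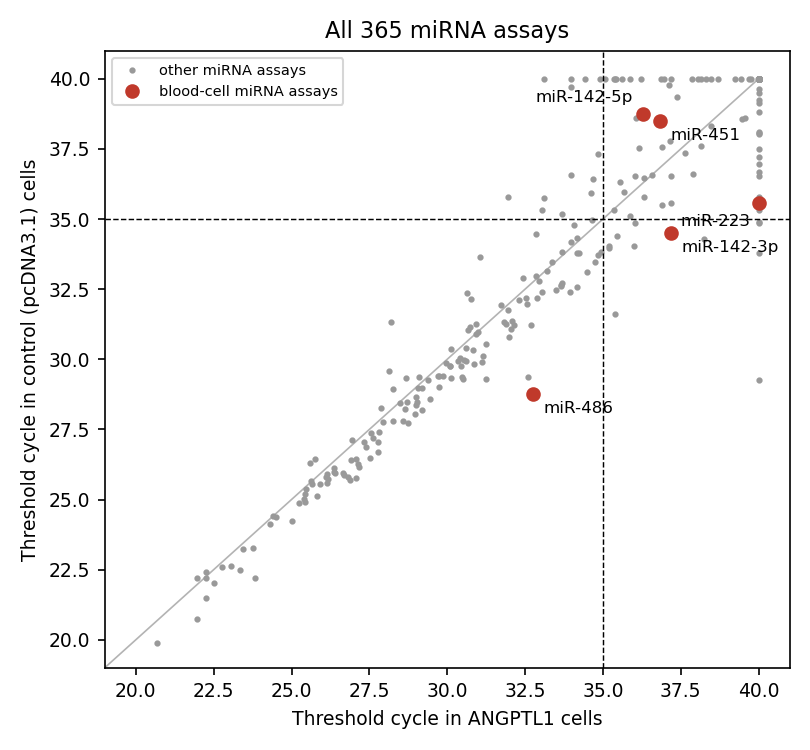
Threshold cycle of each of the 365 miRNA assays in ANGPTL1 cells (horizontal axis) and in control cells (vertical axis), with the 5 blood-cell miRNA assays named; the grey line marks equal cycles and the dashed lines the detection limit of 35. miR-486 lies off the main diagonal band among detected assays, while miR-451 and miR-142-5p lie in the corner later than 35 in both samples.

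The assays with values most like those of miR-486 were ranked by the distance between their pairs of RNU48-normalised cycles. The nearest was miR-422b, 0.63 cycles away, at cycle 32.59 in ANGPTL1 cells and 29.36 in control cells. The next was miR-183, 1.59 cycles away, at 31.25 in ANGPTL1 cells and 29.28 in control cells. miR-550, an assay named miR-9 (number 4378074) and miR-335 followed at 2.01, 2.09 and 2.18 cycles. None of these 5 is a blood-cell miRNA of the lists used here, and the likeness rests on 2 samples.

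The other red-cell miRNA on the card, miR-451, did not accompany miR-486. It crossed threshold at cycle 36.83 in ANGPTL1 cells and 38.50 in control cells, so neither cycle was below the limit. Within ANGPTL1 cells miR-451 came 4.08 cycles after miR-486, and within control cells 9.75 cycles after it, so the distance between these assays differed by 5.67 cycles between the samples. The 2 assays went opposite ways: miR-486 was later and miR-451 earlier in ANGPTL1 cells, although the cycles of miR-451 lie in the range where no ratio was called. Assays differ in efficiency, so a distance between assays is not a ratio of molecules. A fixed offset between assays cancels in the difference between samples if it is the same in both samples. Unequal amplification per cycle does not cancel in this way.

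**Figure D3:**
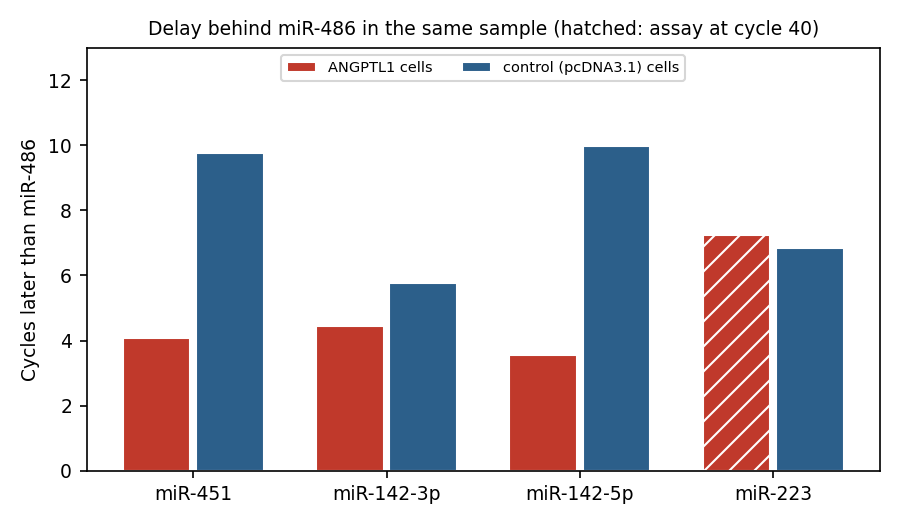
Number of cycles by which miR-451, miR-142-3p, miR-142-5p and miR-223 came later than miR-486 in the same sample (bars from 0), for the ANGPTL1 sample and the control sample; the hatched bar marks an assay at cycle 40, so that its delay is a lower bound. miR-451 is 4.08 cycles behind in the ANGPTL1 sample and 9.75 in the control sample. miR-142-5p is 3.55 cycles behind in the ANGPTL1 sample and 9.98 in the control sample. The cycles of miR-451 and miR-142-5p are past the detection limit of 35 in both samples.

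The leukocyte miRNAs among the members found by name were later than the detection limit, apart from miR-142-3p in control cells. miR-142-3p stood at cycle 37.19 in ANGPTL1 cells and 34.51 in control cells. With the later cycle set to 35, its log2 ratio is a bound of -0.07, at least 1.05-fold lower in ANGPTL1 cells. miR-142-5p, from the other arm of the hairpin printed above, stood at 36.30 in ANGPTL1 cells and 38.73 in control cells. Relative to the control sample the 3p arm was thus 2.68 cycles later and the 5p arm 2.43 cycles earlier in ANGPTL1 cells. No cycle of the 5p arm was below the limit.

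miR-223 gave no amplification by cycle 40 in ANGPTL1 cells and crossed threshold at cycle 35.58 in control cells. Like miR-451 and miR-142-5p, it was detected in neither sample, and no ratio is called for it. The authors' deposited table, which uses cycles up to 40, gives ratios of ANGPTL1 over control cells of 0.0625 for miR-223, 0.209 for miR-142-3p, 4.26 for miR-451 and 7.21 for miR-142-5p. The value for miR-223 rests on the 40 in ANGPTL1 cells.

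The 4 assays that were late in at least 1 sample had no common direction, with 2 earlier in ANGPTL1 cells (miR-451 and miR-142-5p) and 2 earlier in control cells (miR-142-3p and miR-223). Apart from the members, 23 assays on the card stood between cycles 35 and 40 in both samples, and these differed by a median of 0.67 cycles and by up to 2.64 cycles. Of the 23, 3 differed by at least as much as the 1.67 cycles of miR-451, and 2 by at least as much as the 2.43 cycles of miR-142-5p. A total of 19 assays, miR-223 among them, stood at 40 in ANGPTL1 cells and between 35 and 40 in control cells, and 21 showed the reverse.

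The disagreement of the miR-142 arms was set beside other hairpins for which assays named 3p and 5p were both present. Counting miR-142 itself, 11 hairpins had such assays. Of these 3, those of miR-17, miR-30a and miR-324, had both arms detected in both samples. The log2 ratios of their arms differed by 0.21 to 0.38. For miR-142, with the deposited cycles of all 4 measurements, the arms differed by 5.11 (a log2 ratio of -2.26 for 3p and 2.85 for 5p). Since 3 of those 4 cycles were past the limit, the miR-142 value is not measured at a level comparable with these 3 hairpins. Other hairpins with late cycles also had arms far apart, by 5.74 for miR-485, 2.81 for miR-299 and 2.8 for miR-515. Each of these values rests on cycles of 40. The arms of miR-30e differed by 0.59, those of miR-380 by 0.14, and those of miR-369 and miR-512, at 40 throughout, by 0.

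In a list of 5 other miRNAs rich in blood cells, 4 were detected in both samples, beside 145 of all 365 assays. Of the 4, 2 were higher by 2-fold or more in ANGPTL1 cells and 0 lower by that much. Among those 145 assays, 7.59% were higher and 4.83% lower by 2-fold or more. miR-155, known from activated lymphocytes and macrophages, and miR-146a, an inhibitor of NF-kappaB signalling, had log2 ratios of 3.58 and 2.15. miR-342 stood at cycle 27.62 in ANGPTL1 cells and 27.19 in control cells (log2 ratio -0.01), and miR-326 had a log2 ratio of 0.38, or -0.04 without the RNU48 reference. miR-363 was at 40 in ANGPTL1 cells and at 35.74 in control cells, detected in neither, and no ratio is called for it.

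In a list of 10 miRNAs that most tissues express and that red cells also hold in quantity, 9 were detected in both samples. Over all 365 assays, 145 were detected in both samples. From the list, miR-185 stood at 40 in both. Of the 9, 2 were higher by 2-fold or more in ANGPTL1 cells (let-7b, 1.88, and miR-22, 1.09, as log2 ratios), 0 were lower by 2-fold or more, and the other 7 lay within 2-fold, beside the same 7.59% and 4.83% of all such assays. Their median log2 ratio was -0.06, against -0.01 over all 145 assays detected in both samples. Without the RNU48 reference each log2 ratio is lower by 0.42, and then 1 of the 9 (let-7b) was higher and 2 (miR-15a and miR-25) were lower by 2-fold or more, beside 4.14% higher and 20.0% lower among all 145 assays. miR-16 was the earliest of them, at cycle 22.26 in ANGPTL1 cells and 21.48 in control cells. As these miRNAs are made in most cells, their presence does not mark red cells. Both assays named miR-126, a miRNA of endothelium and platelets, were detected in both samples, with log2 ratios of 0.33 and -0.41, or -0.09 and -0.83 without the reference.

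Muscle is another tissue that makes miR-486, and of 4 muscle miRNAs 1 was detected in each sample, beside 43.3% of all assays in ANGPTL1 cells and 43.0% in control cells. It was miR-133b, at cycle 33.70 in ANGPTL1 cells and 32.73 in control cells (log2 ratio -0.55). miR-1 was at 35.35 in ANGPTL1 cells and 40 in control cells, miR-133a at 38.04 in ANGPTL1 cells and 40 in control cells, and miR-206 at 40 in both.

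A list of 8 epithelial miRNAs was read on 9 assays. Of these, 2 were detected in ANGPTL1 cells, beside 43.3% of all assays. In control cells 3 were detected, beside 43.0% of all assays. miR-200c stood at cycle 30.77 in ANGPTL1 cells and 32.16 in control cells, and miR-203 at 31.25 in ANGPTL1 cells and 30.53 in control cells. miR-375 was detected in control cells alone, at 34.38, against 35.45 in ANGPTL1 cells. Of the remaining assays miR-141 reached 35.40 and 1 named miR-200a (number 4378069) 38.71 in ANGPTL1 cells, both at 40 in control cells, and 4 were at 40 in both samples. Of the 9 assays 6 were detected in neither sample, beside 53.4% of all 365 assays. With 9 assays these shares do not allow a statement on epithelial miRNAs.

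**Figure D4:**
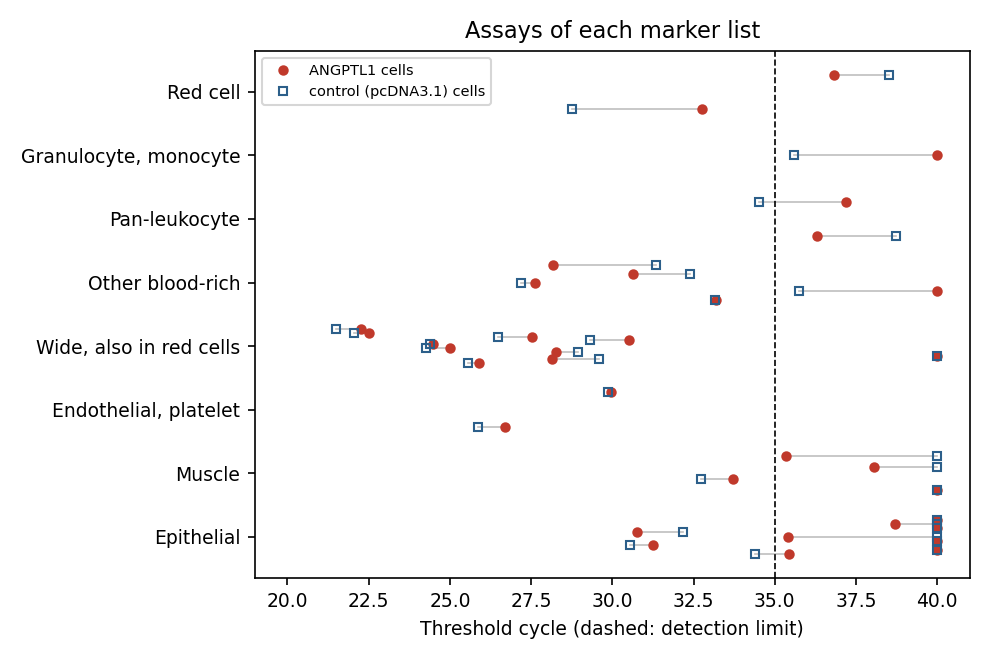
Threshold cycle (horizontal axis) of every assay in 8 marker lists, with a filled point for the ANGPTL1 sample and an open square for the control sample joined by a line; the dashed line marks the detection limit of 35. In the red-cell list miR-486 (lower line) is left of the limit and miR-451 (upper line) right of it, while the list of widely expressed miRNAs has 9 of 10 assays left of the limit in both samples.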

How the data were processed

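Mature miRNAs were measured on a TaqMan Low Density Array card with 1 sample per group, per the labels' protocols. Per the file headers, the authors deposited average threshold cycles (a score here), delta Ct (a log2 scale, cycle of the assay minus cycle of RNU48, which differed from the deposited cycles by at most 0.01) and the fold change ratio of ANGPTL1 over control cells. How many wells were averaged, which threshold was set and which software was used is not stated in the labels or headers, and these values carry no counts. The log2 ratio was computed as delta Ct in control cells minus delta Ct in ANGPTL1 cells. Cycles below 35 counted as detected, and 35 served as the bound where 1 sample alone was detected. The named miRNAs were all members, the 5 nearest assays to miR-486 and the marker lists; for miR-142-3p, nearest assays were also computed. Members and lists were chosen with earlier results of these data known. The assays of miR-17, miR-30a, miR-324 and the other hairpins with both arms follow from a search for such names, made after the values were seen. The late-assay counts were also added then. The counting and ranking functions were tested on simulated data. Python 3.11.15 and matplotlib 3.10.9 were used. The alternatives were other references, detection limits and fold thresholds.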

Additional observations from a re-analysis of the deposited data

How the results depend on the processing

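The log2 ratio of miR-486 was -3.58 relative to RNU48. It was -4 with no reference and -4.05 with the median cycle of detected assays as reference. With 32 as the detection limit it was a bound of -2.83, so a drop of 7.11-fold or more. The limit of 32, a limit of 38 and the median log2 ratio set to 0 (-3.57) were added for this ratio after the data were seen. Without a reference the median over the 145 assays detected in both samples was -0.43 instead of -0.01, and 29 instead of 7 of them were lower by 2-fold or more. The bound for miR-142-3p was -0.07, or -0.49 with no reference and -0.54 with the median cycle. With the deposited cycles, the authors' table or a limit of 38, its log2 ratio was -2.26, which is a plain ratio and not a bound. Detected members in ANGPTL1 cells numbered 1 below cycle 35, 0 below 32, 4 below 38 and 4 below 40. In control cells they numbered 2, 1, 3 and 5 at those limits. Members past 2-fold numbered 1 below 35, 0 below 32, 2 below 38 and 4 below 40, the last with 2 higher and 2 lower, since more late assays were then counted; 1.5-fold and 4-fold thresholds and the other references each gave 1. The shares of all assays at limits of 32, 38 and 40 are not given here, so these member counts are not read as a result on the members. The distance between miR-486 and miR-451 does not depend on the reference. No paired analysis was possible because there is a single sample on each side, and for that reason leaving out a replicate was not run. Late cycles limit every statement on members other than miR-486.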

Other observations

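The assays with values most like those of miR-142-3p, by the same distance, were miR-219 at 1.04 cycles, miR-518f at 1.05, miR-505 at 1.08, an assay named miR-452 (number 4373281) at 1.23 and miR-96 at 1.28. miR-505 stood at cycle 38.25 in ANGPTL1 cells and 34.29 in control cells. miR-96 stood at 36 in ANGPTL1 cells and 34.03 in control cells, and the miR-452 assay at 36.02 in ANGPTL1 cells and 34.87 in control cells. Each of these was detected in control cells alone, as miR-142-3p was. The nearest assays, miR-219 and miR-518f, were detected in neither sample. All ANGPTL1 cycles behind this ranking were past the limit.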
